A study of Mus musculus with 12 samples.

Results

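The genes described here are the cytochrome P450 genes of families 2 and 3, chosen by symbol: every gene named on a single-gene probe set of the array whose symbol starts with Cyp2a, Cyp2b, Cyp2c, Cyp2d, Cyp2e, Cyp2f, Cyp2g, Cyp2j, Cyp2r, Cyp2s, Cyp2u or Cyp3a, except Cyp2c70. The rule takes 48 of the 19938 genes measured, 46 of them protein coding and 2 of them transcribed pseudogenes, Cyp2d13 and Cyp2d37-ps. By subfamily they are 2 genes of 2a, 5 of 2b, 12 of 2c, 10 of 2d, 6 of 2j, 6 of 3a, and 1 each of 2e, 2f, 2g, 2r, 2s, 2u and 2ab, whose Cyp2ab1 fits the same prefix. A further 7 genes, Cyp2a4, Cyp2a5, Cyp2c40, Cyp2c69, Cyp3a41a, Cyp3a41b and Cyp3a59, are named only on 5 probe sets that several of these genes share, and are given as shared sets at the end. Expression was measured on Affymetrix arrays in liver of 129Sv mice, aged 12 weeks and fasted for 24 h before sampling. The 4 groups were control mice (SIRT3WT) on a standard diet, SIRT3KO mice lacking the mitochondrial deacetylase SIRT3 on the standard diet, control mice on a high-fat Western diet, and SIRT3KO mice on that high-fat diet, with 3 arrays in each group. The high-fat diet held 42% fat and was given from weaning, and all 12 samples shared the strain, the age and the fast. The design asks how the livers differ between genotypes on each diet, how they differ between diets in each genotype, and whether the diet difference depends on genotype. The labels give no sex, no litter and no cage. They do not say how the knockout allele was made.

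Cytochrome P450 enzymes of families 2 and 3 sit in the endoplasmic reticulum, take electrons from P450 reductase and cytochrome b5, and insert oxygen into drugs, steroids, fatty acids and retinoids. In liver their transcription is set largely by the nuclear receptors CAR (Nr1i3) and PXR (Nr1i2), which drugs and bile acids activate, by the hepatocyte factors HNF4A and C/EBP, and, for the sex-biased mouse genes, by the pattern of growth hormone release. Many lie in tandem arrays of recent duplicates, so that neighbours resemble each other in sequence.

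Sequence upstream of the start site is shown for 6 genes whose measured values moved with diet in 2 subfamilies: Cyp2b10, Cyp2b13 and Cyp2b9, the 3 genes that were lower on the high-fat diet, and Cyp2c29, Cyp2c37 and Cyp2c50 of the group that was higher. Each run is the 250 bases before the RefSeq transcript start (build GRCm38.p6), written 5′ to 3′ on the gene's strand. In Cyp2b10 the capitals mark a stretch of 12 bases that is also in Cyp2b13 and Cyp2b9, and in those genes they mark the bases at which the pair differs. In Cyp2c29 they mark TATAAA, and in Cyp2c37 and Cyp2c50 every stretch of at least 12 bases that both share.
Cyp2b10, chr7:25897408-25897657, plus strand: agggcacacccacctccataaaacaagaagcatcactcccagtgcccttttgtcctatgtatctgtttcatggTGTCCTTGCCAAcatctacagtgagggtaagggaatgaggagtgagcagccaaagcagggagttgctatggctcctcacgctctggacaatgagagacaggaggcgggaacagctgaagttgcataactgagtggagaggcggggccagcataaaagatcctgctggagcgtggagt
Cyp2b13, chr7:26061245-26061494, plus strand: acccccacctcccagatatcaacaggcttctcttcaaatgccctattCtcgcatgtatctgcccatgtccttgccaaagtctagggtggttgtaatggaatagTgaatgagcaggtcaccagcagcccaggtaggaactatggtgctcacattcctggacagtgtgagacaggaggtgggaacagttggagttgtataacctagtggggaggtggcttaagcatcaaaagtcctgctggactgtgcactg
Cyp2b9, chr7:26173159-26173408, plus strand: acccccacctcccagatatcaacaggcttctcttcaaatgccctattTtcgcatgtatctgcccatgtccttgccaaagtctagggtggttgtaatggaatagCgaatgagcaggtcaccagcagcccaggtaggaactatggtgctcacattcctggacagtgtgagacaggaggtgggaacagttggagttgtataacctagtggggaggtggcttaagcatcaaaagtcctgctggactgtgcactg
Cyp2c29, chr19:39286835-39287084, plus strand: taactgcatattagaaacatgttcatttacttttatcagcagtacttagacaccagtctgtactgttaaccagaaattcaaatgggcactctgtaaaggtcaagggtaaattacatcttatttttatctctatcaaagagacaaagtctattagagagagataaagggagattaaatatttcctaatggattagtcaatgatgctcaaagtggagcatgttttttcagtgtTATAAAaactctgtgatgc
Cyp2c37, chr19:39992174-39992423, plus strand: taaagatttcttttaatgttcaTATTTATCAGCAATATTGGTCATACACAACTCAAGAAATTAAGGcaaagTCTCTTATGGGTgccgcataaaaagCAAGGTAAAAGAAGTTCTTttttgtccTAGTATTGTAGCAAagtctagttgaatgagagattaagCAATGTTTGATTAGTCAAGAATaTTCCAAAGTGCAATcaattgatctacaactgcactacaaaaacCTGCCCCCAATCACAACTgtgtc
Cyp2c50, chr19:40089429-40089678, plus strand: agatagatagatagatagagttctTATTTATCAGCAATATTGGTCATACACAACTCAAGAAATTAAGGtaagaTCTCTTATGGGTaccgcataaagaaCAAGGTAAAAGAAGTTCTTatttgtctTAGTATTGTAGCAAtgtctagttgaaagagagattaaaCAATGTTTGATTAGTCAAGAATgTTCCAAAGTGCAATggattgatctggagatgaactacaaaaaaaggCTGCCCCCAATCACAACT

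In RefSeq's gene order Cyp2b10, Cyp2b13 and Cyp2b9 are direct neighbours, and so are Cyp2c37, Cyp2c54 and Cyp2c50. The windows of Cyp2b13 and Cyp2b9 were 99.2% identical, differing by C48T and T104C (Cyp2b13 base first, positions counted from the window's 5′ end), and each was 70.0% identical to that of Cyp2b10. Cyp2c37 and Cyp2c50 were 84.3% identical, while Cyp2c29 and Cyp2c50 were 55.9% identical. RefSeq windows of the 250 bases before the start were matched for 39 of the 48 genes, 42 windows in all. Cyp2c23, Cyp2c54, Cyp2d12, Cyp2d13, Cyp2d22, Cyp2d34, Cyp2d37-ps, Cyp2g1 and Cyp2u1 had no match. TATAAA on the gene's strand stood in 13 of the 42 windows (31.0%), against 7.59% of all 32851 windows. CAAAGTCCA, a site type bound by HNF4A, was found on either strand in 5 windows (11.9%), those of Cyp2c65, Cyp2c67, Cyp2c68, Cyp3a11 and Cyp3a16, against 0.384% of all windows. CCAAT on either strand stood in 18 windows (42.9%) against 33.8% of all. TTATGTAA, bound by Dbp and its relatives, was in 0 of the 42 windows and 0.819% of all. These are matches of letters in windows of 250 bases and not measured binding. Windows of duplicated neighbours resemble each other, so the 42 windows are not independent, and their shares were not tested against those of all windows.

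Some facts of the whole data set bear on every value below. The values are RMA log2 expression values, and array medians ran from 6.34 to 6.47. Arrays of different diets shared identical deposited values at a median of 0 probe sets per pair, while pairs of standard-diet arrays shared a median of 20 and pairs of high-fat arrays a median of 7; 335 probe sets had no value on any standard-diet array. The 2 diets were thus apparently normalized in separate runs, and run and diet cannot be told apart in any diet difference. Sirt3 itself averaged 9.05 in control and 8.90 in SIRT3KO liver on the standard diet, 9.18 and 8.76 on the high-fat diet, and was not called in either genotype comparison (limma adjusted p = 0.661 and 1.00). In those comparisons 1 and 0 of all 19938 genes were called. Sirt3 values of the genotypes did not overlap: every SIRT3KO array, at 8.49 to 8.95, lay below every control array, at 8.97 to 9.29. Where the Sirt3 probes lie relative to the deletion is not given in the sources used here, so Sirt3 does not check the labels. SIRT3KO standard-diet replicate 1 stood apart from the other arrays for several of these genes and for acute-phase and sex-biased genes, as described below. The labels do not say that the arrays of a group came from separate animals, so p-values measure only the spread between these samples.

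Mean signals of the 48 probe sets ran from 3.19 to 13.98. Signals of different probe sets depend on their probes, so each level describes its own set and no order of the genes is read from them. As a guide to dim signal, 1246 chemosensory receptor genes, which liver is not known to use, had a median level of 4.23 and a 95th percentile of 5.98, and the median of all genes was 6.70. The 12-array mean log2 level was above that 95th percentile for 33 of the 48 genes. In subfamily 2a the mean levels were Cyp2a12 11.33 and Cyp2a22 6.77, and in 2b, which holds the CAR target Cyp2b10, Cyp2b10 8.26 and Cyp2b23 6.31. In 2c, the subfamily of fatty acid and retinoid oxidation, they were Cyp2c23 11.96, Cyp2c29 12.81, Cyp2c37 11.14, Cyp2c38 10.04, Cyp2c39 12.70, Cyp2c50 11.42, Cyp2c54 11.33, Cyp2c67 11.10 and Cyp2c68 9.54. In 2d they were Cyp2d9 12.60, Cyp2d10 12.10, Cyp2d13 11.12, Cyp2d22 11.36, Cyp2d26 13.20, Cyp2d34 7.03, Cyp2d37-ps 10.87 and Cyp2d40 8.36. Cyp2e1, which oxidises ethanol, acetone and fatty acids, averaged 13.98, and Cyp2f2, which activates naphthalene, 12.56. In 2j the levels were Cyp2j5 12.41, Cyp2j6 9.44 and Cyp2j9 7.54, and in 3a, the main drug-oxidising subfamily, Cyp3a11 13.06, Cyp3a13 10.31, Cyp3a25 12.88 and Cyp3a44 8.29. Cyp2r1, a vitamin D hydroxylase, averaged 6.41, Cyp2s1 averaged 6.02, and Cyp2u1, a fatty acid hydroxylase, 8.40.

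The remaining 15 genes averaged at or under the 95th percentile of the chemosensory genes, so whether liver RNA of these genes was detected cannot be read from their level. They were Cyp2ab1 4.91, Cyp2b9 3.83, Cyp2b13 4.17, Cyp2b19 5.24, Cyp2c55 4.63, Cyp2c65 3.19, Cyp2c66 5.25, Cyp2d11 5.82, Cyp2d12 5.60, Cyp2g1 5.01, Cyp2j11 4.93, Cyp2j12 4.85, Cyp2j13 4.67, Cyp3a16 4.09 and Cyp3a57 4.72. Among them are genes best known from other tissues, such as Cyp2g1 of olfactory mucosa, and Cyp2b9 and Cyp2b13, which predominate in female liver. On single arrays, the range over the 12 was narrowest for Cyp2e1, 13.86 to 14.07, and widest for Cyp2b10, 7.18 to 9.62.

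**Figure D1:**
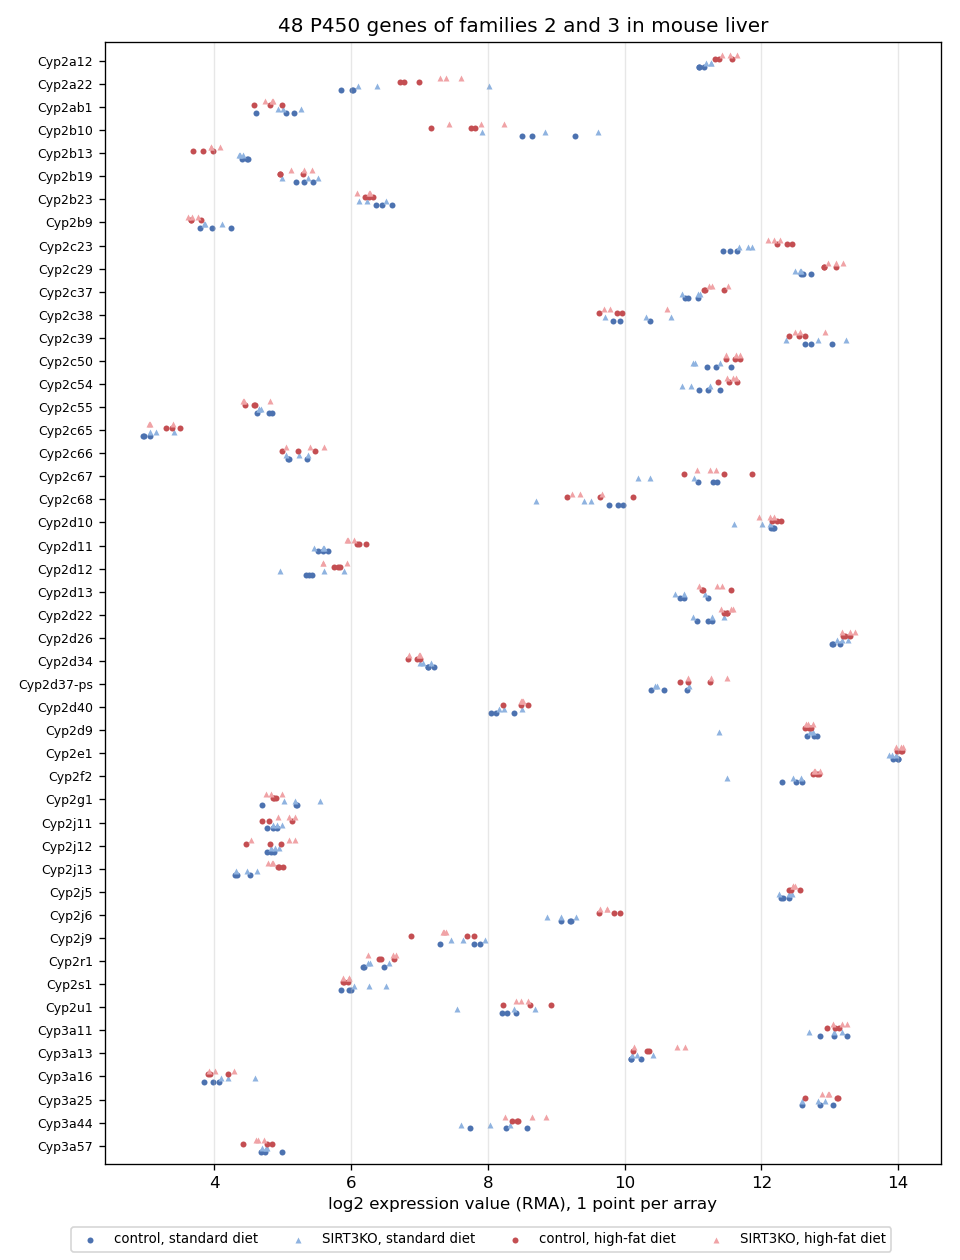
RMA log2 expression value (horizontal axis) of the 48 P450 genes (rows, by name), 1 point per array; circles are control and triangles SIRT3KO mice, blue is the standard and red the high-fat diet, with 3 arrays per group. Cyp2b10 spreads from 7.18 to 9.62, and 1 SIRT3KO standard-diet array lies left of the rest at Cyp2d9 (11.38) and Cyp2f2 (11.50).

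On the high-fat diet these genes were more often higher than lower. With both genotypes averaged, 14 of the 48 genes rose and 3 fell (35.4% called; limma adjusted p under 0.05, Benjamini-Hochberg over 19938 genes), while 18.0% of all genes were called, 10.3% higher and 7.69% lower. In control liver 6 rose, Cyp2a12, Cyp2c23, Cyp2c29, Cyp2d11, Cyp2j6 and Cyp2j13, and 2 fell, Cyp2b10 and Cyp2b13, which is 16.7% of the 48 where 5.99% of all genes were called, 4.3% higher and 1.69% lower. In SIRT3KO liver 6 rose, Cyp2c23, Cyp2c29, Cyp2c50, Cyp2c54, Cyp2d11 and Cyp2j6, and 1 fell, Cyp2b13, which is 14.6% of the 48 where 5.11% of all genes were called, 2.45% higher and 2.66% lower. The average further called Cyp2a22, Cyp2c37, Cyp2d13, Cyp2d22, Cyp2d37-ps and Cyp2f2 as higher and Cyp2b9 as lower. The average uses the same arrays as the comparisons within each genotype and is not independent of them. The count in control liver dropped from 8 to 5 without control standard-diet replicate 2, control standard-diet replicate 3 or control high-fat replicate 1. The count in SIRT3KO liver went from 7 to 2 without SIRT3KO high-fat replicate 2, to 4 without SIRT3KO high-fat replicate 3 and to 12 without SIRT3KO standard-diet replicate 3. The share of all genes called in these fits is not given here, so the changes are not read as particular to the 48 genes.

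The median diet difference of the 48 genes was 0.13 on the log2 scale in control and 0.17 in SIRT3KO liver, against 0.04 and -0.01 over all genes. All high-fat arrays lay above all standard-diet arrays for 13 genes in control liver and 12 in SIRT3KO liver, with 19.4% and 10.6% of all genes; they lay below for 5 and 7, with 10.9% and 13.2% of all genes. Of the 33 genes above the dim reference, 12 rose and 1 fell in the average, while of the 13471 genes of the array above it 9.11% were called higher and 7.27% lower. Among the 15 genes at or under the dim reference 2 rose and 2 fell. Of the chemosensory genes themselves 13.4% were called higher and 9.47% lower in the same comparison, so calls of the dim genes are not read as a result about them. When a variance for an offset between the diets, with an SD of 0.214 taken from the chemosensory genes, was added to the error, 0 of the 48 genes were called in control liver, in SIRT3KO liver or in the average. That SD comes from dim signals, with a median level of 4.23, and whether it holds for brighter genes was not tested. Quantile normalization changed the split in control liver from 6 higher and 2 lower to 9 higher and 1 lower, with the share of all genes under it not given here. These are bulk livers, in which fewer cells of a type and less RNA per cell cannot be told apart.

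**Figure D2:**
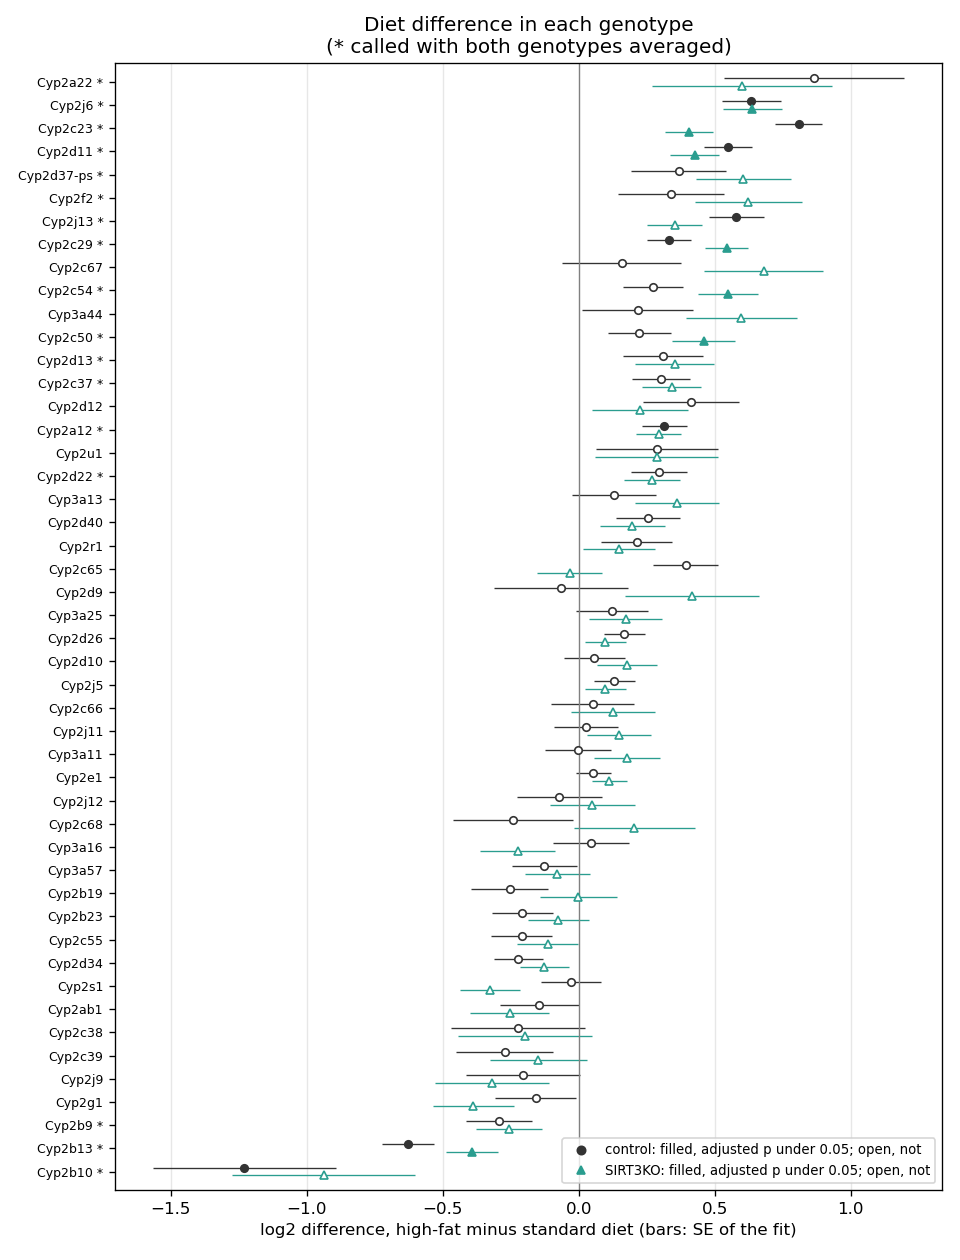
Log2 difference between the high-fat and the standard diet (horizontal axis; bars, SE of the limma fit with 3 arrays per group) for each of the 48 genes (rows), in control and SIRT3KO liver separately; asterisks mark the 17 genes called with both genotypes averaged. The called genes at the top end include Cyp2a22 and Cyp2j6, and Cyp2b10 lies lowest in both genotypes, at -1.23 and -0.94.

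The 3 genes that fell were all of subfamily 2b, which holds 5, and only Cyp2b10 of them averaged above the dim reference. Cyp2b10, the classic target of CAR and the gene most often used to read phenobarbital-type induction, was at 9.28, 8.65 and 8.51 on the standard diet and 7.81, 7.18 and 7.75 on the high-fat diet in control liver. In SIRT3KO liver it was at 7.92, 9.62 and 8.84 on the standard diet and 7.43, 8.23 and 7.90 on the high-fat diet. All 3 high-fat controls lay below all standard-diet controls, while in SIRT3KO liver replicate 1 on the standard diet lay among the high-fat values. The diet difference was -1.23 ± 0.337 (limma adjusted p = 0.0459) in control liver and -0.94 ± 0.337 (limma adjusted p = 0.121) in SIRT3KO liver, and -1.08 ± 0.238 (limma adjusted p = 0.00695) in the average. Cyp2b10 thus fell in control liver and in the average and was not called in SIRT3KO liver, but the difference between the genotypes was not called either, at 0.29 ± 0.476 (limma adjusted p = 0.967). The control-liver call was lost without any 1 of the 6 control arrays, SIRT3KO high-fat replicate 2 or SIRT3KO high-fat replicate 3 (difference -1.38 to -0.996, limma adjusted p up to 0.158), and under quantile normalization, robust moderation and a filter on a mean level of at least 5. The average kept its call without any 1 array, at -1.30 to -0.88.

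Cyp2b13 was at 4.41, 4.49 and 4.48 on the standard diet and 3.98, 3.84 and 3.69 on the high-fat diet in control liver. In SIRT3KO liver its values were 4.38, 4.42 and 4.36 on the standard diet and 3.95, 4.08 and 3.96 on the high-fat diet. The diets did not overlap in either genotype, and the gene fell in both, by 0.63 ± 0.0955 (limma adjusted p = 0.00289) in control liver and 0.39 ± 0.0955 (limma adjusted p = 0.0300) in SIRT3KO liver. Its neighbour Cyp2b9 was at 4.25, 3.79 and 3.97 on the standard diet and 3.81, 3.67 and 3.66 on the high-fat diet in control liver. Values of Cyp2b9 in SIRT3KO liver were 3.86, 3.84 and 4.11 on the standard diet and 3.67, 3.77 and 3.61 on the high-fat diet. Its diet difference was -0.29 ± 0.121 (limma adjusted p = 0.164) in control liver and -0.26 ± 0.121 (limma adjusted p = 0.237) in SIRT3KO liver, neither called though the SIRT3KO groups did not overlap, and -0.27 ± 0.0855 (limma adjusted p = 0.0384) in the average, where it fell. Both probe sets read near the median of the chemosensory genes, so these are differences between dim signals, and near-identical copies such as this pair may share signal. In SIRT3KO liver the call of Cyp2b13 was lost without SIRT3KO standard-diet replicate 1 or 2 or any 1 SIRT3KO high-fat array (-0.44 to -0.37, limma adjusted p up to 0.0925), and with only the compared groups fitted. The average call of Cyp2b9 was lost without control standard-diet replicate 1 or 3, SIRT3KO standard-diet replicate 3, control high-fat replicate 2 or 3, or SIRT3KO high-fat replicate 1 or 3 (-0.33 to -0.21, limma adjusted p up to 0.0915), and with array weights. Of the other 2b genes, Cyp2b23 had an average difference of -0.14 ± 0.0789 (limma adjusted p = 0.234) and Cyp2b19, known from skin, of -0.13 ± 0.101 (limma adjusted p = 0.409). Without SIRT3KO standard-diet replicate 1 these averages were -0.09 and -0.20.

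Of the 12 genes of subfamily 2c, 5 rose in the average and 0 fell. Cyp2c23, an epoxygenase that turns arachidonic acid into epoxyeicosatrienoic acids, was at 11.44, 11.54 and 11.65 on the standard diet and 12.37, 12.45 and 12.23 on the high-fat diet in control liver. In SIRT3KO liver it was at 11.86, 11.80 and 11.68 on the standard diet and 12.19, 12.27 and 12.09 on the high-fat diet. All 6 high-fat arrays lay above all 6 standard-diet arrays, in both genotypes. It rose by 0.81 ± 0.0876 (limma adjusted p = 0.000232) in control liver and 0.40 ± 0.0876 (limma adjusted p = 0.0177) in SIRT3KO liver, and by 0.61 ± 0.0619 (limma adjusted p = 4.63e-05) in the average, a 1.52-fold difference. Its rise in SIRT3KO liver was smaller by 0.40 log2 units, -0.40 ± 0.124 for the interaction, with an unadjusted limma p of 0.00547 and an adjusted p of 0.945, so a genotype dependence was not called. The SIRT3KO call was lost without SIRT3KO high-fat replicate 2 (limma adjusted p = 0.0820) and with only the compared groups fitted.

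Cyp2c29, an arachidonic acid epoxygenase of mouse liver, was at 12.73, 12.61 and 12.58 on the standard diet and 13.09, 12.92 and 12.91 on the high-fat diet in control liver. SIRT3KO livers had 12.57, 12.50 and 12.57 on the standard diet and 13.10, 13.20 and 12.98 on the high-fat diet. Again the diets did not overlap in either genotype. Cyp2c29 rose by 0.33 ± 0.0802 (limma adjusted p = 0.0277) in control liver and 0.54 ± 0.0802 (limma adjusted p = 0.00247) in SIRT3KO liver. The control call was lost without control standard-diet replicate 2 or 3 or control high-fat replicate 1 (0.28 to 0.38, limma adjusted p up to 0.125) and under median centring. The SIRT3KO call held without any 1 array.

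The neighbours Cyp2c37, Cyp2c54 and Cyp2c50, whose enzymes also oxidise arachidonic acid, rose together in the average. Probe sets of such close neighbours may share signal, which was not tested, so their calls may not be separate. Cyp2c37 was at 11.07, 10.88 and 10.93 on the standard diet and 11.45, 11.16 and 11.18 on the high-fat diet in control liver. Its SIRT3KO values were 11.11, 10.84 and 11.07 on the standard diet and 11.23, 11.52 and 11.29 on the high-fat diet. Its diet groups overlapped in neither genotype. It was not called in either and rose by 0.32 ± 0.0756 (limma adjusted p = 0.00983) in the average. Cyp2c54 had 11.39, 11.09 and 11.22 on the standard diet and 11.64, 11.53 and 11.37 on the high-fat diet in control liver. With SIRT3KO it had 10.84, 10.98 and 11.25 on the standard diet and 11.50, 11.58 and 11.63 on the high-fat diet. The diet groups of SIRT3KO liver did not overlap, and those of control liver overlapped. Cyp2c54 differed by 0.28 ± 0.110 (limma adjusted p = 0.154) in control liver and 0.55 ± 0.110 (limma adjusted p = 0.0125) in SIRT3KO liver, and rose in SIRT3KO liver and in the average, 0.41 ± 0.0781 (limma adjusted p = 0.00300). Cyp2c50 was at 11.56, 11.20 and 11.34 on the standard diet and 11.61, 11.68 and 11.48 on the high-fat diet in control liver. On SIRT3KO arrays it was at 11.04, 10.99 and 11.39 on the standard diet and 11.49, 11.63 and 11.68 on the high-fat diet. Its difference was 0.22 ± 0.115 (limma adjusted p = 0.268) in control liver and 0.46 ± 0.115 (limma adjusted p = 0.0346) in SIRT3KO liver, the second of which was called, and 0.34 ± 0.0816 (limma adjusted p = 0.0106) in the average. In SIRT3KO liver the call of Cyp2c54 was lost without SIRT3KO high-fat replicate 2 (limma adjusted p = 0.0506). That of Cyp2c50 was lost without SIRT3KO standard-diet replicate 1 or 2, control high-fat replicate 1, or SIRT3KO high-fat replicate 2 or 3 (0.39 to 0.59, limma adjusted p up to 0.126), and with only the compared groups fitted.

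The other 7 genes of subfamily 2c were not called by diet, with average differences from -0.21 to 0.42, the highest being that of Cyp2c67. Cyp2c39, a retinoic acid hydroxylase, differed by -0.21 ± 0.126 (limma adjusted p = 0.268). Its direct neighbours Cyp2c29 and Cyp2c38 differed by 0.44 and -0.21, of which the first was called and the second was not. The averages of Cyp2c39 and Cyp2c38 were -0.10 and -0.10 without SIRT3KO standard-diet replicate 1.

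In subfamily 2d, 4 of 10 genes rose in the average and 0 fell. Cyp2d11 was at 5.59, 5.52 and 5.67 on the standard diet and 6.21, 6.12 and 6.09 on the high-fat diet in control liver. Its SIRT3KO arrays read 5.46, 5.61 and 5.59 on the standard diet and 5.95, 5.96 and 6.04 on the high-fat diet. Diets did not overlap in either genotype, and Cyp2d11 rose in both, by 0.55 ± 0.0893 (limma adjusted p = 0.00436) in control liver and 0.43 ± 0.0893 (limma adjusted p = 0.0149) in SIRT3KO liver, though its probe set is among the 15 at or under the dim reference. Cyp2d22 had 11.21, 11.06 and 11.27 on the standard diet and 11.49, 11.49 and 11.45 on the high-fat diet in control liver. In SIRT3KO liver it had 11.00, 11.46 and 11.28 on the standard diet and 11.42, 11.59 and 11.55 on the high-fat diet. The diets overlapped in SIRT3KO but not in control liver, and Cyp2d22 rose by 0.28 ± 0.0738 (limma adjusted p = 0.0171) in the average. The SIRT3KO call of Cyp2d11 was lost without SIRT3KO standard-diet replicate 1 or SIRT3KO high-fat replicate 2 or 3 (limma adjusted p up to 0.0619), and with only the compared groups fitted.

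The pseudogenes of this subfamily were both higher on the high-fat diet in the average. Cyp2d37-ps was at 10.58, 10.39 and 10.92 on the standard diet and 10.81, 11.25 and 10.93 on the high-fat diet in control liver. SIRT3KO values were 10.47, 10.45 and 10.95 on the standard diet and 10.92, 11.27 and 11.49 on the high-fat diet. For both pseudogenes the diet groups overlapped in each genotype. Cyp2d37-ps rose by 0.49 ± 0.123 (limma adjusted p = 0.0145) in the average. Cyp2d13 was at 10.87, 10.81 and 11.22 on the standard diet and 11.14, 11.55 and 11.15 on the high-fat diet in control liver. SIRT3KO livers read 10.88, 10.74 and 11.18 on the standard diet and 11.08, 11.43 and 11.35 on the high-fat diet. It rose by 0.33 ± 0.103 (limma adjusted p = 0.0379) in the average, a call lost without control standard-diet replicate 1 or 2, SIRT3KO standard-diet replicate 1 or 2, control high-fat replicate 2, or SIRT3KO high-fat replicate 2 or 3 (0.26 to 0.39, limma adjusted p up to 0.0939) and under median centring. Probe sets of pseudogenes can read RNA of their functional relatives. Among the genes not called, Cyp2d26 differed by 0.13, Cyp2d10 by 0.12, Cyp2d40 by 0.23 and Cyp2d9, the male-specific testosterone hydroxylase, by 0.18. Without SIRT3KO standard-diet replicate 1 the average was 0.04 for Cyp2d10 and -0.05 for Cyp2d9.

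Cyp2a12, a steroid hydroxylase, Cyp2a22 and Cyp2f2 are neighbours in RefSeq's order, and all 3 rose in the average. Cyp2a12 was at 11.09, 11.08 and 11.16 on the standard diet and 11.39, 11.57 and 11.33 on the high-fat diet in control liver. Its SIRT3KO values were 11.27, 11.26 and 11.19 on the standard diet and 11.42, 11.64 and 11.55 on the high-fat diet. Every high-fat array lay above every standard-diet array. Cyp2a12 differed by 0.32 ± 0.0835 (limma adjusted p = 0.0403) in control liver and 0.29 ± 0.0835 (limma adjusted p = 0.0560) in SIRT3KO liver, called in control liver, and by 0.30 ± 0.0591 (limma adjusted p = 0.00338) in the average. The control call was lost without any 1 control standard-diet array, control high-fat replicate 1 or 2, or SIRT3KO high-fat replicate 3 (limma adjusted p up to 0.132), and under median centring and with no intensity trend.

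Cyp2a22 read 6.02, 5.86 and 6.02 on the standard diet and 6.72, 6.77 and 7.00 on the high-fat diet in control liver. In SIRT3KO liver it read 8.02, 6.10 and 6.38 on the standard diet and 7.30, 7.61 and 7.40 on the high-fat diet. The control diets did not overlap, while the highest of all 12 values was SIRT3KO standard-diet replicate 1. The diet difference was 0.87 ± 0.331 (limma adjusted p = 0.137) in control liver and 0.60 ± 0.331 (limma adjusted p = 0.315) in SIRT3KO liver; the second was 1.20 without that replicate. Over all 12 arrays Cyp2a22 rose by 0.73 ± 0.234 (limma adjusted p = 0.0425) in the average. That call was lost without any 1 array other than SIRT3KO standard-diet replicate 1 (0.55 to 1.03 over all 12, limma adjusted p up to 0.0916), without which the difference was 1.03; it was also lost under robust moderation, quantile normalization and median centring.

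Cyp2f2, which is known from periportal hepatocytes and from the club cells of the airways, was at 12.30, 12.51 and 12.59 on the standard diet and 12.76, 12.84 and 12.81 on the high-fat diet in control liver. SIRT3KO arrays read 11.50, 12.58 and 12.46 on the standard diet and 12.85, 12.79 and 12.77 on the high-fat diet. All high-fat arrays lay between 12.76 and 12.85, above every standard-diet array. Cyp2f2 was called only in the average, 0.48 ± 0.139 (limma adjusted p = 0.0273). Without SIRT3KO standard-diet replicate 1 the average fell from 0.48 to 0.31, still called, while the call was lost without control standard-diet replicate 1, control high-fat replicate 2 or SIRT3KO high-fat replicate 1 or 2 (limma adjusted p up to 0.0683), and under robust moderation.

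Subfamily 2j held 2 called genes of 6. Cyp2j6 was at 9.20, 9.22 and 9.08 on the standard diet and 9.85, 9.93 and 9.63 on the high-fat diet in control liver. In SIRT3KO liver it was at 8.86, 9.08 and 9.29 on the standard diet and 9.65, 9.75 and 9.75 on the high-fat diet. The lowest high-fat value lay above the highest standard-diet value. Cyp2j6 rose by 0.64 ± 0.109 (limma adjusted p = 0.00557) in control liver and 0.64 ± 0.109 (limma adjusted p = 0.00517) in SIRT3KO liver, 1.55-fold in the average, and kept each call without any 1 array. Cyp2j13 read 4.52, 4.31 and 4.33 on the standard diet and 5.01, 4.94 and 4.95 on the high-fat diet in control liver. SIRT3KO values of Cyp2j13 were 4.63, 4.33 and 4.48 on the standard diet and 4.78, 4.85 and 4.86 on the high-fat diet. It rose in control liver, 0.58 ± 0.1003 (limma adjusted p = 0.00575), and in the average, 0.47 ± 0.0709 (limma adjusted p = 0.000704), but is among the 15 dim genes. Cyp2j5, an arachidonic acid epoxygenase of kidney and liver, was not called, with an average difference of 0.11 ± 0.0537 (limma adjusted p = 0.155), and Cyp2j9 not either, with -0.26 ± 0.148 (limma adjusted p = 0.242).

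The remaining subfamilies held no gene called by diet. Cyp2e1 was at 14.00, 13.93 and 14.00 on the standard diet and 13.99, 14.06 and 14.04 on the high-fat diet in control liver. SIRT3KO livers had 13.86, 13.91 and 13.96 on the standard diet and 13.96, 14.07 and 14.04 on the high-fat diet. Its average difference was 0.08 ± 0.0462 (limma adjusted p = 0.229). The 6 genes of 3a had average differences from -0.10 to 0.41, and Cyp3a11, the usual target of PXR, differed by 0.09 ± 0.0856 (limma adjusted p = 0.513). Cyp3a13 differed by 0.25 ± 0.108 (limma adjusted p = 0.132) and Cyp3a44 by 0.41 ± 0.144 (limma adjusted p = 0.0653). Cyp2u1 differed by 0.29, Cyp2r1 by 0.18, Cyp2s1 by -0.18, Cyp2g1 by -0.27 and Cyp2ab1 by -0.20. Without SIRT3KO standard-diet replicate 1 the average of Cyp3a11 was 0.02 and that of Cyp2u1 0.12. These p-values do not show that the genes were equal between diets.

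**Figure D3:**
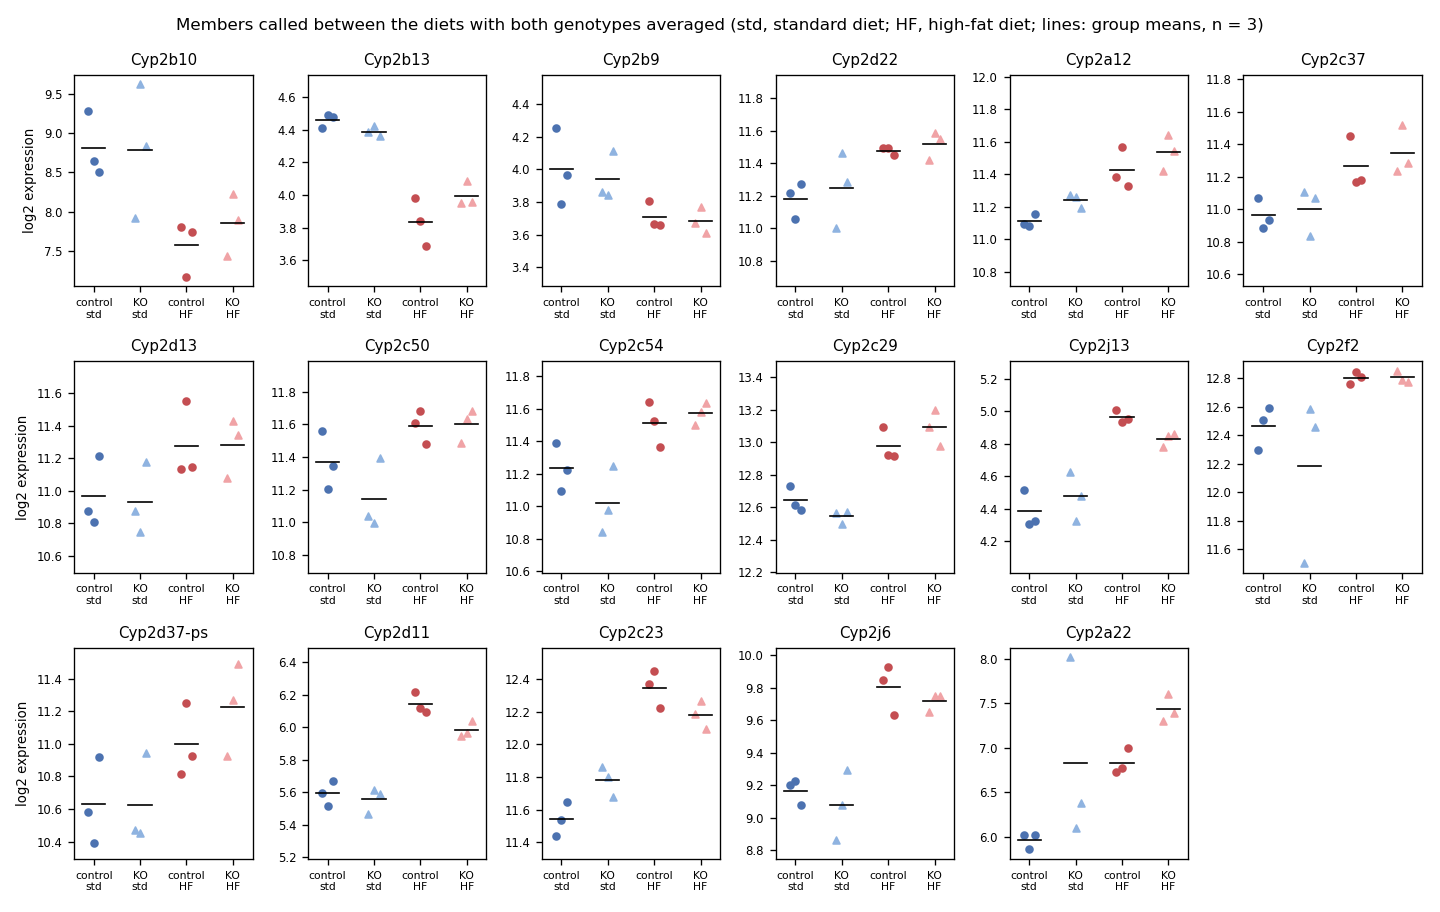
RMA log2 expression (vertical axis) of the 17 genes called by diet with both genotypes averaged, 1 panel per gene, ordered from the lowest to the highest average difference; points are arrays and bars group means, with 3 arrays per group (std, standard diet; HF, high-fat diet). The 3 genes of subfamily 2b step down from standard to high-fat and the other 14 step up.

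Genotype gave no call. On the standard diet 0 of the 48 genes differed between SIRT3KO and control liver by limma (adjusted p under 0.05), where 0.00502% of all genes, 1 of 19938, were called. At an unadjusted p under 0.05 there were 7 of the 48 genes (14.6%), against 9.73% of all genes. All SIRT3KO arrays lay above all controls for 5 genes, with 9.88% of all genes, and below for 4, with 4.52%. The 3 genes with the smallest p are given as values. Cyp2c67 was at 11.08, 11.29 and 11.36 in control and 10.38, 10.20 and 11.02 in SIRT3KO liver, a difference of -0.71 ± 0.219 (limma adjusted p = 0.502). Its neighbour Cyp2c68 was at 9.77, 9.91 and 9.98 in control and 9.41, 8.71 and 9.51 in SIRT3KO liver, -0.68 ± 0.222 (limma adjusted p = 0.502). Both were lower on all 3 SIRT3KO arrays. Cyp2s1, known mostly from epithelia, was at 5.85, 6.00 and 5.97 in control and 6.26, 6.51 and 6.04 in SIRT3KO liver, 0.33 ± 0.111 (limma adjusted p = 0.502). On the high-fat diet Cyp2c67 was at 11.46, 11.87 and 10.87 in control and 11.24, 11.06 and 11.34 in SIRT3KO liver, and Cyp2c68 at 9.65, 10.13 and 9.16 and 9.23, 9.35 and 9.67, so that the groups overlapped there. Cyp2s1 read 5.88, 5.89 and 5.96 and 5.97, 5.98 and 5.89 on that diet.

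On the high-fat diet 0 of the 48 genes were called between genotypes, and 0 of all 19938 genes (0.0%). None had an unadjusted p under 0.05, against 2.86% of all genes. Non-overlapping groups were seen for 1 gene higher and 2 lower, with 2.41% and 4.27% of all genes. The higher gene was Cyp2a22, by 0.60 ± 0.331, and the lower ones were Cyp2d11 and Cyp2j13. On the standard diet the genotypes did not overlap for Cyp2a22 either. Its difference there was 0.87 ± 0.331, and 0.27 without SIRT3KO standard-diet replicate 1. The smallest p belonged to Cyp3a13, at 10.36, 10.33 and 10.12 in control and 10.14, 10.77 and 10.88 in SIRT3KO liver, 0.32 ± 0.153 (limma adjusted p = 1.00). Next came Cyp2c23 with -0.17 ± 0.0876 (limma adjusted p = 1.00) and Cyp2c65, a gene of gut epithelium and dim here, with -0.22 ± 0.119 (limma adjusted p = 1.00). Cyp2c65 was at 3.38, 3.49 and 3.30 in control and 3.07, 3.40 and 3.05 in SIRT3KO liver on this diet, and at 2.97, 3.06 and 2.96 and 3.06, 3.41 and 3.14 on the standard diet. On the standard diet Cyp3a13 read 10.23, 10.10 and 10.10 in control and 10.42, 10.18 and 10.11 in SIRT3KO liver.

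The diet difference was not called as dependent on genotype for any of the 48 genes, nor for any of the 19938 (0.0%). At an unadjusted p under 0.05 there were 2 of the 48 genes, against 4.73% of all genes, Cyp2c23 and Cyp2c65. The interaction, the diet difference in SIRT3KO minus that in control liver, was -0.43 ± 0.168 (limma adjusted p = 0.945) for Cyp2c65 and -0.30 ± 0.156 (limma adjusted p = 0.945) for Cyp2s1. With 3 arrays per group the SE of an interaction was 0.124 for Cyp2c23 and 0.476 for Cyp2b10, so that differences of that order between genotypes could not be resolved.

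SIRT3KO standard-diet replicate 1 differed from the other arrays for several of these genes. Of the 48 genes 13 had their lowest and 6 their highest of 12 values on it, where 10.1% and 10.2% of all genes did. Control high-fat replicate 2 and SIRT3KO high-fat replicate 2 each held the highest value of 10 of the 48. Of all genes, 12.1% and 6.23% had their highest value there. On SIRT3KO standard-diet replicate 1, 3 genes, Cyp2d9, Cyp2f2 and Cyp2u1, lay over 0.5 log2 units outside the range of the other 11 arrays, against 0.497% of all genes; on each of the other arrays 0 of the 48 did so. Cyp2d9 was 11.38 there and 12.63 to 12.82 elsewhere. Cyp2f2 was 11.50 there and 12.30 to 12.85 elsewhere, and Cyp2u1 7.55 against 8.21 to 8.93. Cyp2a22 lay above the rest at 8.02, against 5.86 to 7.61. Without this array the genotype difference on the standard diet changed from -0.47 to -0.02 for Cyp2d9, from 0.87 to 0.27 for Cyp2a22 and from -0.28 to 0.06 for Cyp2f2. The diet difference in SIRT3KO liver changed from -0.94 to -1.37 for Cyp2b10 and from 0.42 to -0.03 for Cyp2d9. None of the 48 was called between genotypes with or without it.

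Other genes moved with this array. The mean of 19 acute-phase genes, each centred on its 12-array mean, was 1.36 there and -0.32 to 0.27 on the other arrays, with Saa1, a serum amyloid gene, at 11.78 against 5.00 to 7.88. The mean of 10 female-biased liver genes outside these families was 1.44 there and -0.25 to -0.0011 elsewhere, with Sult3a1, a female-predominant sulfotransferase, at 8.64 against 3.03 to 3.52. The mean of 12 male-biased genes was -1.28 there and -0.40 to 0.98 elsewhere. Xist, which is transcribed from the inactive X chromosome of females, read 4.31 to 4.80 on all 12 arrays, under the 5.98 of the dim reference. The Y-linked Eif2s3y was 7.55 there and 8.19 to 9.14 elsewhere. Uty was 6.51 there and 7.43 to 8.17 elsewhere, and Kdm5d 6.17 and 6.73 to 7.38. These Y-linked genes were above the dim reference on all 12 arrays, so no array read as female by them. The part of the acute-phase and sex-biased shifts in the values of the P450 genes was not tested. Of the sex-biased members measured on sets of their own, female-biased Cyp3a16 was highest of all on this array, 4.59 against 3.85 to 4.28, and female-biased Cyp3a44 lowest, 7.61 against 7.74 to 8.85. Female-biased Cyp2b9 and Cyp2b13, at 3.86 and 4.38, lay within the ranges of the others, 3.61 to 4.25 and 3.69 to 4.49. Male-biased Cyp2d9 was lowest there, as given above.

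**Figure D4:**
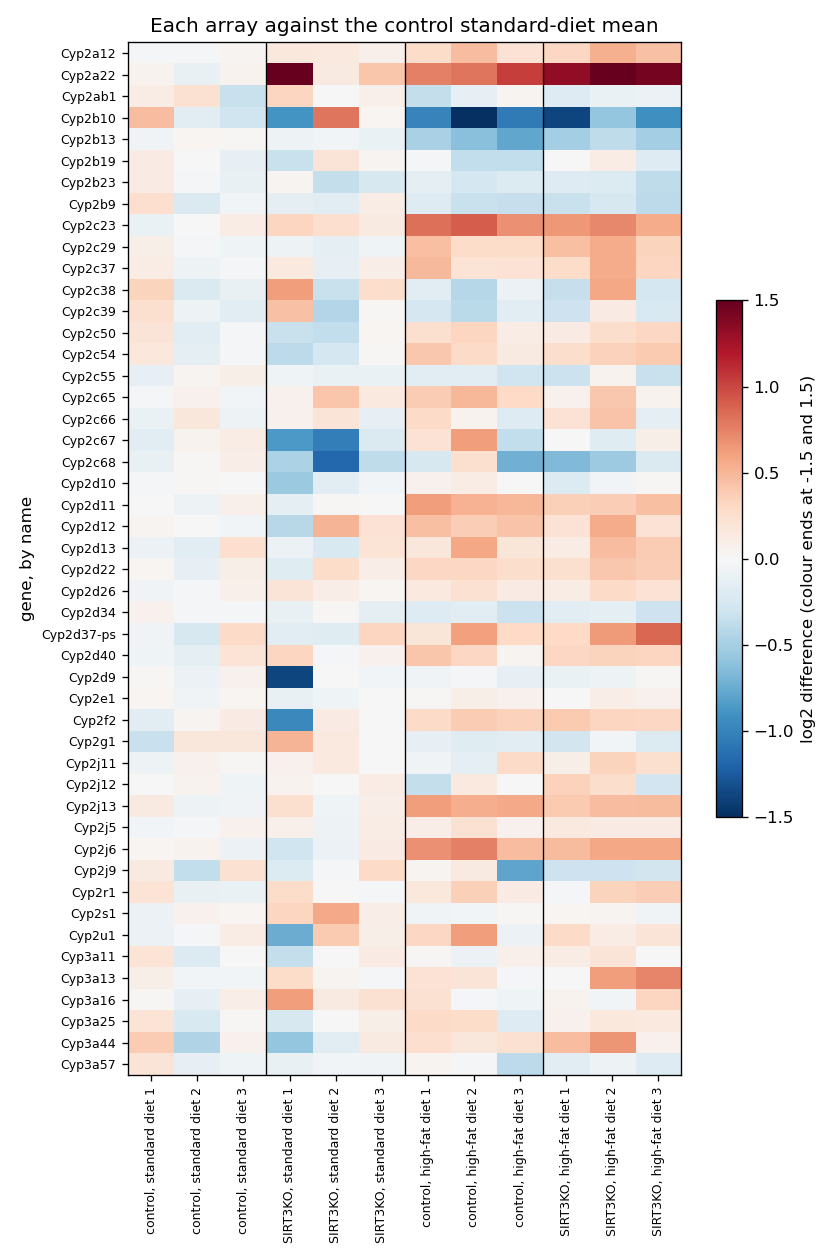
Log2 difference of each array (columns, 4 groups of 3) from the control standard-diet mean for the 48 genes (rows, by name); red is higher and blue lower, with colours ending at -1.5 and 1.5. SIRT3KO standard-diet replicate 1 shows the low Cyp2d9 and Cyp2f2, and the high-fat columns show the higher Cyp2c23 and Cyp2j6 and the lower Cyp2b10.

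Genes known to control or serve these enzymes were read from lists drawn up with earlier results of these data known, and 0 of their genes were called in the genotype and interaction comparisons. Of 22 regulators measured, 5 rose and 1 fell by diet in the average, where 10.3% of all genes were called higher and 7.69% lower. They included Dbp and Tef, circadian activators of P450 genes, which differed by 1.74 ± 0.227 (limma adjusted p = 0.000241) and 0.86 ± 0.136 (limma adjusted p = 0.000988). Dbp read 7.63, 7.47 and 7.86 on the standard diet and 8.82, 9.21 and 9.98 on the high-fat diet in control liver. Ppara, the fatty acid receptor, rose by 0.36 ± 0.0855 (limma adjusted p = 0.00988) and Foxa3 fell, at -0.44 ± 0.141 (limma adjusted p = 0.0420). CAR and PXR were named after their values were seen: CAR, Nr1i3, rose by 0.28 ± 0.0889 (limma adjusted p = 0.0403), while PXR, Nr1i2, differed by 0.09 ± 0.134 (limma adjusted p = 0.683). In each genotype 2 of the 22 were called, Dbp and Tef, both higher.

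Of 20 other genes that CAR and PXR activate, 3 rose and 5 fell in the average. Slco1a4, a bile acid and drug transporter, fell, at -0.92 ± 0.161 (limma adjusted p = 0.00182), as did Gadd45b, at -0.97 ± 0.166 (limma adjusted p = 0.00157), and Meg3, at -0.75 ± 0.120 (limma adjusted p = 0.00101). Sult1e1, the oestrogen sulfotransferase, rose by 1.61 ± 0.286 (limma adjusted p = 0.00197). The list thus moved in both directions, with a median difference of 0.03. Of 13 genes for electron transfer and haem synthesis 0 rose and 2 fell, the haem enzymes Urod, at -0.25 ± 0.0538 (limma adjusted p = 0.00571), and Cpox, at -0.27 ± 0.0880 (limma adjusted p = 0.0486). Of 10 genes for growth hormone signalling 2 rose, the repressor Bcl6 by 1.45 ± 0.294 (limma adjusted p = 0.00459) and the receptor Ghr by 0.36 ± 0.0615 (limma adjusted p = 0.00154). Of the 12 male-biased genes 4 rose and 0 fell, and of the 10 female-biased ones outside these families 1 rose and 1 fell. The male-biased list was low on SIRT3KO standard-diet replicate 1, as given above, and the part of that array in these counts was not tested. Cyp17a1, a steroid hydroxylase of the female-biased list, fell, at -2.75 ± 0.251 (limma adjusted p = 2.15e-05). Of the 39 other P450 genes on the array 9 rose and 4 fell in the average, and 3 rose and 4 fell in each genotype. Of all genes 10.3% were called higher and 7.69% lower in the average. The shares were 4.3% and 1.69% in control and 2.45% and 2.66% in SIRT3KO liver. More frequent calls by diet were thus not particular to families 2 and 3.

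Between genotypes the 2 genes with the smallest p in each of 3 lists are given as values, SIRT3KO minus control, none of them called. On the standard diet these were Nfil3 with 0.50 ± 0.233 (limma adjusted p = 0.513) and Onecut1 with -0.91 ± 0.441 (limma adjusted p = 0.521) among the regulators. Among the other CAR and PXR targets they were Gstt3 with 0.69 ± 0.184 (limma adjusted p = 0.502) and Abcb1a with 0.54 ± 0.164 (limma adjusted p = 0.502). For electron transfer and haem synthesis they were Alad with 0.11 ± 0.0841 (limma adjusted p = 0.666) and Hmox1 with 0.25 ± 0.234 (limma adjusted p = 0.728). With the high-fat diet the regulators were Tef with 0.33 ± 0.193 (limma adjusted p = 1.00) and Ppargc1a with -0.27 ± 0.181 (limma adjusted p = 1.00). The CAR and PXR targets there were Papss2 with 0.35 ± 0.139 (limma adjusted p = 1.00) and Gstt3 with 0.44 ± 0.184 (limma adjusted p = 1.00), and the genes of electron transfer and haem synthesis Hmox1 with -0.40 ± 0.234 (limma adjusted p = 1.00) and Cyb5a with 0.11 ± 0.0870 (limma adjusted p = 1.00).

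Markers of liver cells and of other tissues were read beside the diet differences. Of 6 hepatocyte markers, with mean levels of 12.17 to 14.14, 0 rose and 1 fell, Tat, at -0.39 ± 0.103 (limma adjusted p = 0.0181). Of 8 markers of hepatocytes around the central vein, the zone known for Cyp2e1 and Cyp2c29, 4 rose and 0 fell, Cldn2 by 0.53 ± 0.116 (limma adjusted p = 0.00690), Slc1a2 by 0.45 ± 0.0926 (limma adjusted p = 0.00489), Glul by 0.29 ± 0.0532 (limma adjusted p = 0.00261) and Cyp1a2 by 0.27 ± 0.0753 (limma adjusted p = 0.0248). Their mean after centring was -0.23 to -0.04 on the standard-diet arrays and -0.05 to 0.18 on the high-fat arrays. Of 5 markers of hepatocytes around the portal vein, the zone known for Cyp2f2, 2 fell, Hal, at -0.51 ± 0.0881 (limma adjusted p = 0.00167), and Cdh1, at -0.95 ± 0.0708 (limma adjusted p = 2.47e-06). Their mean was 0.07 to 0.26 on the standard-diet and -0.27 to -0.10 on the high-fat arrays. The part of zonation in the P450 differences was not tested. Of 6 lymphocyte markers, with mean levels of 4.01 to 6.70, 3 rose and 0 fell. Of 9 Kupffer cell markers and of 5 neutrophil markers 0 were called in either direction, and of 6 endothelial and 7 stellate cell markers 1 each rose. Of 5 bile duct markers 1 fell, and of 3 kidney tubule markers 1 rose. Club cell markers, which could bring Cyp2f2 from lung, were not called and averaged 3.35 and 4.93, under the 5.98 of the dim reference. Markers of exocrine pancreas and fat were not called.

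The 5 shared probe sets entered no test, since none names a single gene. The set shared by Cyp2a5, the coumarin hydroxylase, and female-biased Cyp2a4 varied most, from 9.77 to 12.35. Its values were 11.42, 9.77 and 10.78 in control and 11.26, 11.36 and 11.41 in SIRT3KO liver under standard feeding. Under high-fat feeding they were 10.70, 10.37 and 11.50 and 10.78, 12.35 and 11.82. All groups overlapped. The set of Cyp2c40, Cyp2c67, Cyp2c68 and Cyp2c69 averaged 11.49 ± 0.139 (SD, n = 3) in control and 11.12 ± 0.210 in SIRT3KO liver on the standard diet, and 11.60 ± 0.321 and 11.50 ± 0.189 on the high-fat diet. It can read the same RNA as the sets of Cyp2c67 and Cyp2c68 described above. The 3 sets of 3a genes, which cover Cyp3a41a, Cyp3a41b and Cyp3a59 beside Cyp3a11, Cyp3a25, Cyp3a44 and Cyp3a57, ran from 9.85 to 11.95.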

How the data were processed

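The deposited values are log2 expression values, for which the submitters' processing notes name RMA and Affymetrix Expression Console; which arrays were normalized together is not given in the sources used here. Of 35557 probe sets, GEO's platform annotation named 1 gene for 21789, several for 1621 and none for 12147; 21698 symbols were matched to RefSeq by Entrez identifier. The set with the highest mean stood for each of 19938 genes. limma 3.58.1 in R 4.3.3 fitted 1 mean per group over 12 arrays with an intensity trend (eBayes), and p-values were adjusted by Benjamini-Hochberg over all 19938 genes, with 0.05 as the threshold. A fold is 2 to the power of a log2 difference. Arrays have no sequencing depth; their number, 3 per group, limits the precision. Deviations of arrays with the same replicate number correlated at -0.27 to 0.41 over 18 pairs, with a median of 0.05. The median over 36 pairs with different numbers was -0.03. Numbers were not taken as pairs, though correlations over all genes do not exclude a factor linked to the number in some genes. Values on every array were given for genes called in any comparison, and for the 3 with the smallest p where fewer than 3 were called; the other lists name up to 4 genes called in the diet average, and, for 3 lists, the 2 with the smallest p between genotypes. The genes and lists were chosen with earlier results of these data known. Alternatives changed the moderation, weighting, filter, probe-set choice, normalization, threshold, array set and replicate block, and a fit was tested on simulated data. Promoter windows are from RefSeq, build GRCm38.p6.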

Additional observations from a re-analysis of the deposited data

How the results depend on the processing

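Calls by diet depended on the setting. No difference called reversed under any alternative run, but most alternatives change only the error or the threshold and cannot reverse a difference. Array weights, quantile normalization, median centring and leaving out 1 array can move it. Run and diet stay confounded in all of these, so the kept direction is not read as support. In control liver, 8 of the 48 genes called became 13 with array weights, 13 with only the compared groups fitted, 5 among genes with a mean of at least 5, 4 at a minimum of 1.5-fold and 0 with the offset variance. In SIRT3KO liver, 7 became 18 with array weights, 3 with only the compared groups, 11 with quantile normalization, 13 at an adjusted p under 0.1, 1 at 1.5-fold and 0 with the offset variance. In the average, 17 became 4 at 1.5-fold and 0 with the offset variance. The share of all genes called under each setting is not given here. The changes in count are therefore not read as particular to the 48 genes. By construction the offset variance adds error, the 1.5-fold minimum can only remove calls, and an adjusted p under 0.1 can only add them. The filter on a mean of at least 5 leaves out Cyp2b13 and Cyp2j13, both called in control liver. What caused the other changes was not tested. Leaving out 1 array gave 5 to 11 genes in control liver, 2 to 12 in SIRT3KO liver and 13 to 19 in the average. A call was kept in every such fit by 5 of 8, 2 of 7 and 13 of 17 genes. Genotype and interaction counts were 0 of the 48 genes under each alternative. With the replicate number as a block, limma called 8 genes in control liver (7 higher and 1 lower, against 6 and 2 without it, Cyp2b10 losing its call), 8 in SIRT3KO liver and 17 in the average; the numbers are not known to pair the mice.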
